A study of Mus musculus with 12 samples.

Results

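Mouse embryonic fibroblasts (MEFs) stably expressing mutant IDH2 were compared with MEFs carrying the empty vector, in 3 libraries each (2MUT and Control), 6 of the 12 libraries of the series. The parent cells, from day 13.5 C57BL/6 embryos, were a line that arose in long culture with no immortalizing gene added. A retroviral vector of the pMXs-puro type carried human IDH2 with 3×FLAG, and transduced cells were selected with puromycin. The other 6 libraries, 2-HG(-) and 2-HG(+), came from MEFs labelled as given DMSO or 300 μM 2-hydroxyglutarate (2-HG) for 24 h (the study's text describes the 2-HG(-) cells as not treated), and are used here only to show where the stable change differed from the acute one. The unit of description is the gene. Of 43280 entries in the expression table, 11065 had a mean of at least 1 RPM (reads per 1000000 reads of the library) over the 6 libraries and were tested.

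IDH2 is the mitochondrial enzyme that turns isocitrate into 2-oxoglutarate with NADP as the electron acceptor, and IDH1 does the same in the cytosol. Cancer-associated mutants instead reduce 2-oxoglutarate to 2-HG, a close structural relative that competes with it in a large family of oxygenases. These oxygenases include the prolyl hydroxylases that mark HIF1α for degradation, the TET enzymes that oxidise methylated DNA, and many histone demethylases. The study cites opposing reports on whether 2-HG inhibits or stimulates these prolyl hydroxylases. Fibroblasts are the main producers of collagen matrix in connective tissue and respond to growth factors, cytokines and stretch with changes in matrix, contractile and cell division genes.

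The Control libraries held 6758352, 7020095 and 7313602 reads and the 2MUT libraries 6472439, 6830420 and 7267323 reads, so that 3 reads correspond to between 0.410 and 0.464 RPM. Replicates differed from each other by more than sampling noise in both groups (chi-square per degree of freedom 10.6 to 16.1 in Control and 5.88 to 7.24 in 2MUT). Control replicate 3 stood apart in a limited set of genes: among 3973 genes of at least 50 RPM, 35 were more than 4-fold below both of its partners while the partners lay within 1.5-fold of each other, against 0 to 3 genes in each of the other libraries. Without that library 1926 genes were higher and 1880 lower in 2MUT. No source says that replicates were separate cultures, so p-values measure the spread between these libraries. No source says that a group held more than 1 transduced and selected population, and no wild-type IDH2 line was among these libraries, so the mutant enzyme, the added IDH2 itself and the history of the selected line cannot be told apart.

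The cells had the marker profile of fibroblasts. Of 12 fibroblast markers, 10 were above 1 RPM, and their summed level ranged from 17700 to 19600 RPM in Control and from 16900 to 17500 RPM in 2MUT. Lum and S100a4 were below 1 RPM on average. Of the 10 tested markers 2 were higher and 7 lower in 2MUT, against 16.5% and 17.3% of all tested genes. All 10 epithelial markers were under 1 RPM, as were 8 of 9 endothelial and 11 of 14 macrophage and leukocyte markers. Ptprc, the pan-leukocyte antigen, was near 0, but the summed level of the macrophage list was 20.7 to 24.2 RPM in Control and 43.6 to 54.6 RPM in 2MUT. Most of that difference lay in Cd14, a co-receptor for bacterial lipopolysaccharide, which rose from 12.2 ± 2.24 to 38.5 ± 5.60 RPM (mean ± SD, n = 3 in each group, as throughout). Of 10 chondrocyte and osteoblast markers 8 were under 1 RPM, and their summed level was 369 to 450 RPM in Control and 262 to 328 RPM in 2MUT. It lay in Runx2 (117 ± 21.6 RPM in Control and 102 ± 6.55 RPM in 2MUT) and Sox9, which fell (-0.68 ± 0.13), while the cartilage matrix gene Acan was at 0 in every library. Of 7 adipocyte markers 5 were under 1 RPM, with a summed level of 58.9 to 62.7 RPM in Control and 45.9 to 56.8 RPM in 2MUT, mainly in Fabp4.

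The targeted gene gives no check of the labels. The transgene was human, the panel was designed for mouse transcripts, and whether it reads human IDH2 was not tested. Mouse Idh2 itself fell, from 77.3 ± 5.54 to 49.6 ± 6.39 RPM (log2 fold change -0.63 ± 0.13, limma adjusted p = 0.003). Fold changes are given throughout as the difference of log2(RPM + 1) ± its standard error, which understates the change of genes near 1 RPM. Idh1 moved the other way and read 32.3, 31.2 and 42.1 RPM in Control and 56.4, 56.5 and 52.01 RPM in 2MUT (log2 fold change 0.64 ± 0.14, limma adjusted p = 0.0048). The groups did not overlap for either gene. Of the 3 subunit genes of the NAD-dependent enzyme, Idh3b fell from 109.8 ± 0.718 to 74.7 ± 4.29 RPM (log2 fold change -0.55 ± 0.10, limma adjusted p = 0.0017), and Idh3a at -0.38 ± 0.10 was called lower except without 2MUT replicate 1 or 2, without a variance trend and in the unmoderated test, while Idh3g, at -0.17 ± 0.08, did not pass the test.

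Across the genome, 1826 genes (16.5%) were higher and 1915 (17.3%) lower in 2MUT at a limma adjusted p under 0.05 (Benjamini-Hochberg over all 11065 genes). Changes were mostly small: the median size among called genes was 0.688 on the log2 scale, and 37.02% of them were under 1.5-fold. At least 2-fold changes were found in 419 genes (3.79%) that rose and 450 (4.07%) that fell. All 3 2MUT libraries lay above all 3 Control libraries in 2604 genes (23.5%) and below them in 2654 (24.0%). The median log2 fold change of all genes was 0.008, with quartiles of -0.309 and 0.33, which are the background for the lists of genes. The positions of the amplified targets were not given in the sources used here, and neither was the use of strand in counting. The reads of a gene that overlaps another tested gene are therefore uncertain, which among the genes named here holds for Adamts4, Adhfe1, Cables1, Ccna2, Col4a1, Cyp51, Dusp1, Gadd45a, Gm15156, Hk1, Iapp, Idh3b, Igfbp7, Itga1, Itga7, Jmjd8, Junb, Kdm5a, Kif20a, Kmt2c, Mcm7, Mettl7b, Nfkb2, Pdha1, Pdia3, Prdx2, Psmb9, Ptchd1, Ptx3, Runx2, Setdb1, Slc6a9, Tap1, Timp4, Tk1 and Wars. A per-gene test without moderated variance, used as an alternative, did not pass Idh3a, Timp2, Got1, Gins4, Mcm7, Sesn2, Col12a1, Col8a1, Mmp14, Synpo2, Mylk, Tgfb2, Id3, Tcf7l2, Hk1, Stc2, Hmox1, Ddit3, Wars, Nfe2l2, Txn1, Kmt2a and Sox9, which are described here as changed. Positions are given from GENCODE M21 (GRCm38).

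**Figure D1:**
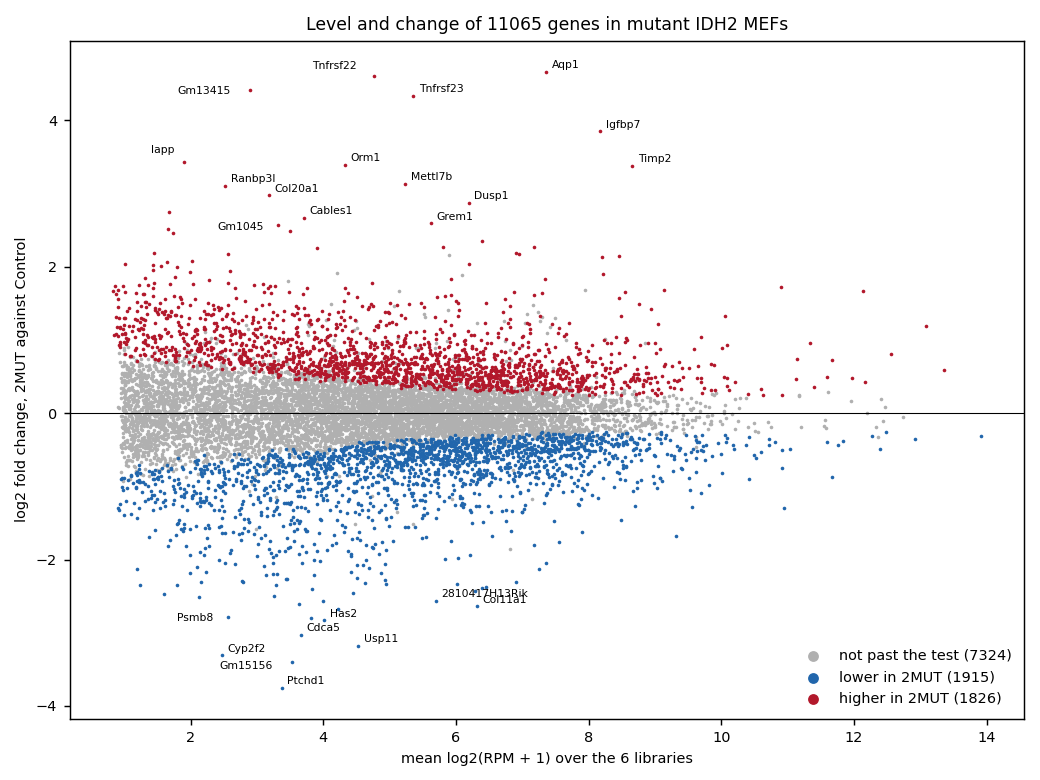
Log2 fold change of 2MUT against Control (y axis) by mean log2(RPM + 1) over the 6 libraries (x axis) for the 11065 genes tested, with genes past the limma test in red (higher) and blue (lower) and others in grey; most of the 30 genes with the largest non-overlapping changes are named. The largest changes run from Aqp1 at 4.67 to Ptchd1 at -3.75.

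The largest rises of at least 10 RPM were in genes of unlike function. Genes were picked as largest rises or falls only if the libraries of the groups did not overlap. For these genes that separation is part of the rule and not a result. Aqp1, a water channel, read 24.1, 39.2 and 33.5 RPM in Control and 826, 869.5 and 793 RPM in 2MUT. The decoy death receptor genes Tnfrsf22 and Tnfrsf23 had log2 fold changes of 4.61 ± 0.17 and 4.34 ± 0.15; they are neighbouring relatives on chromosome 7 and may share reads. Igfbp7, a secreted protein that binds insulin-like growth factors, was at 3.85. In each of these genes the lowest 2MUT library was far above the highest Control library.

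Secreted proteins known from other tissues were also among them. Iapp, which encodes the islet hormone amylin (chr6:142298423-142303961), read 0.148, 0 and 0.273 RPM in Control and 9.89, 13.9 and 10.2 RPM in 2MUT, so that its fitted log2 fold change of 3.43 ± 0.23 depends on the 1 RPM added before the logarithm. Orm1, an acute phase protein made mainly by liver (chr4:63344560-63348163), read 4.00, 7.12 and 4.79 RPM in Control and 70.1, 61.3 and 60.3 RPM in 2MUT (log2 fold change 3.39 ± 0.19, limma adjusted p = 6.3e-07). Neither gene's groups overlapped, as the rule for these genes required.

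Timp2, an inhibitor of matrix metalloproteinases (chr11:118301069-118355740), was the most uneven of the large rises. It read 118, 114 and 142 RPM in Control and 3013, 294 and 2490.0 RPM in 2MUT. All 2MUT libraries lay above all Control libraries, as the same rule required, but 2MUT replicate 2 was far below its partners. The log2 fold change of 3.38 ± 0.65 became 4.45 without that replicate and was as low as 2.77 without 2MUT replicate 1, and it passed the limma test without any 1 library, but not the unmoderated test.

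Signalling regulators were among the other large rises. Dusp1, the phosphatase that switches off MAP kinases, read 22.9, 27.6 and 28.03 RPM in Control and 201, 205 and 187 RPM in 2MUT (log2 fold change 2.87 ± 0.12, limma adjusted p = 8.1e-08). Grem1, a secreted antagonist of bone morphogenetic proteins, went from 19.2 ± 2.28 to 121 ± 9.94 RPM (log2 fold change 2.59 ± 0.13). Cables1, a cyclin-dependent kinase substrate adaptor, went from 4.21 ± 0.406 to 32.1 ± 2.43 RPM and Mettl7b, a methyltransferase-like protein of lipid droplets, from 11.9 ± 2.35 to 111 ± 9.49 RPM. The nuclear export factor gene Ranbp3l, the collagen chain gene Col20a1 and the gene models Gm13415 and Gm1045 completed the 15 largest rises, with log2 fold changes of 3.10, 2.98, 4.41 and 2.57.

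Of the largest falls, Cdca5, Dlgap5, Cdca3, Spc24, Psrc1, Iqgap3, Neil3 and 2810417H13Rik are described beside the cell division groups and Col11a1 with the collagens. Ptchd1, a patched-domain membrane protein on the X chromosome, and the antisense transcript Gm15156 within its span fell together, at -3.75 and -3.40. Reads of the pair cannot be told apart without the strand. Usp11, a deubiquitinase also on the X chromosome, was at -3.18. Cyp2f2, a lung and liver cytochrome P450, was at -3.31. Has2, the main synthase of hyaluronan in fibroblasts (chr15:56665627-56694539), read 44.7, 40.5 and 41.3 RPM in Control and 3.71, 5.56 and 6.19 RPM in 2MUT (log2 fold change -2.83 ± 0.19, limma adjusted p = 1.7e-06). Psmb8, a catalytic subunit of the immunoproteasome (chr17:34197721-34201454), read 12.9, 16.4 and 14.5 RPM in Control and 1.08, 1.61 and 1.10 RPM in 2MUT (log2 fold change -2.79 ± 0.21, limma adjusted p = 4.1e-06). No Control library was as low as any 2MUT library in these genes, as the rule for the largest falls required.

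**Figure D2:**
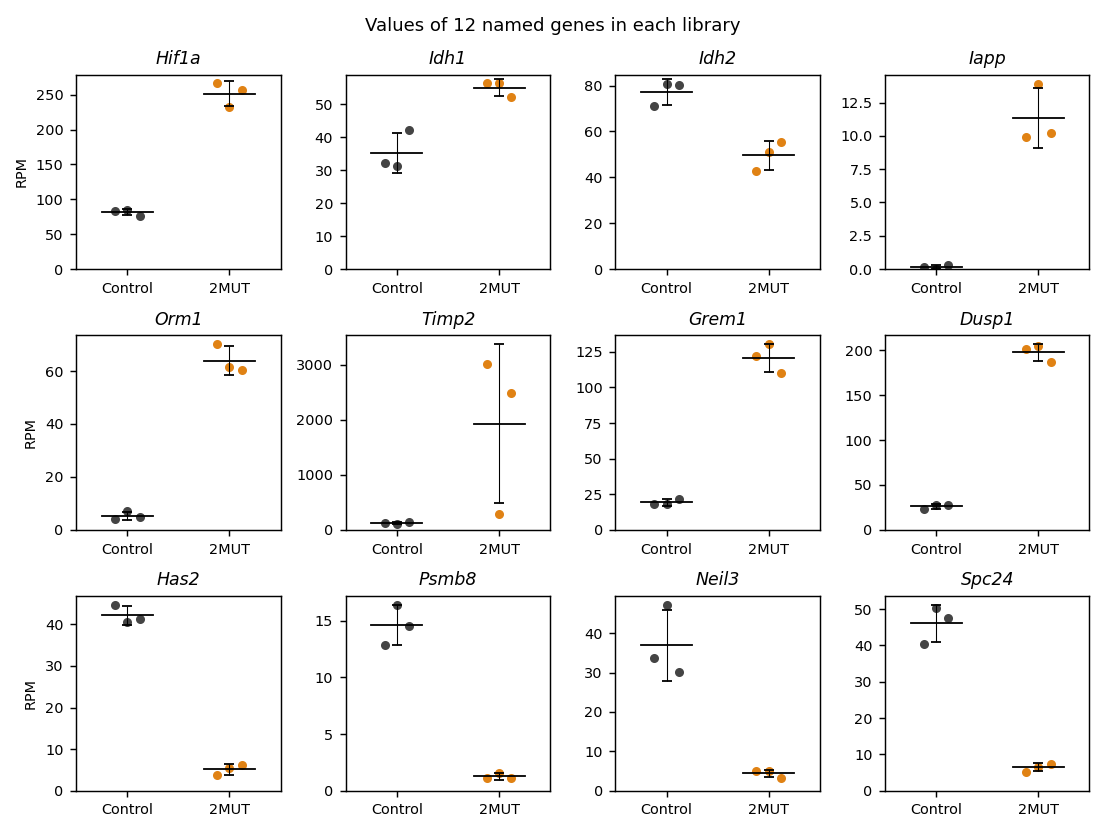
RPM in each library (points), with the mean (bar) and SD (whiskers) of 3 libraries, for 12 named genes in Control and 2MUT; each panel has its own linear axis starting at 0. Hif1a, Idh1, Iapp, Orm1, Timp2, Grem1 and Dusp1 are higher and Idh2, Has2, Psmb8, Neil3 and Spc24 lower in 2MUT, without overlap of the libraries, and Timp2 replicate 2 at 294 RPM lies far below its partners. Non-overlap was a condition for naming all of them but Hif1a, Idh1 and Idh2.

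Genes of mitosis showed the most uniform change of any group. The cell cycle ends with mitosis, in which cyclin B with CDK1 drives entry, the spindle and kinetochore align chromosomes, and the anaphase-promoting complex triggers their separation. All 45 tested genes of this list fell in 2MUT, with a median log2 fold change of -1.80 (0.008 over all genes), and 40 of them fell at least 2-fold. Of all tested genes 17.3% fell and 4.07% fell at least 2-fold. In all 45 every 2MUT library lay below every Control library, against 24.0% of all tested genes. With any 1 library left out, 44 or 45 of them remained past the test.

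Cdca5 (sororin, which protects sister chromatid cohesion) fell furthest and read 34.8, 41.7 and 29.8 RPM in Control and 5.87, 4.98 and 1.10 RPM in 2MUT (log2 fold change -3.03 ± 0.37, limma adjusted p = 0.00012). Dlgap5, a spindle assembly factor, read 22.5, 23.2 and 19.96 RPM in Control and 4.48, 2.93 and 2.06 RPM in 2MUT (log2 fold change -2.50 ± 0.22, limma adjusted p = 1.6e-05). Ube2c, the ubiquitin-conjugating enzyme of the anaphase-promoting complex, read 179, 196 and 170.2 RPM in Control and 36.00, 41.6 and 23.4 RPM in 2MUT (log2 fold change -2.44 ± 0.18, limma adjusted p = 4e-06). Replicate 3 was the lowest 2MUT library for each of these genes. Ccna2 (cyclin A2) went from 194 ± 42.2 to 36.02 ± 5.88 RPM and Top2a, the topoisomerase that untangles sister chromatids, from 319.7 ± 18.4 to 72.4 ± 6.75 RPM, at log2 fold changes of -2.38 ± 0.17 and -2.13 ± 0.10. Kif20a, a kinesin of cytokinesis, was at -1.80 ± 0.11. Cdca3, which promotes mitotic entry, was at -2.46 ± 0.21.

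Spc24, Psrc1 and Iqgap3 were outside this list and among the largest falls. Spc24, a subunit of the kinetochore's Ndc80 complex, read 40.4, 50.4 and 47.5 RPM in Control and 5.25, 6.59 and 7.43 RPM in 2MUT (log2 fold change -2.67 ± 0.17, limma adjusted p = 1.4e-06). Psrc1, a spindle-associated protein, and Iqgap3, a scaffold of proliferating cells, were at -2.57 ± 0.18 and -2.60 ± 0.20. In these bulk libraries, fewer dividing cells and less RNA per dividing cell cannot be told apart.

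The promoters of many mitotic genes carry the CHR element, TTTGAA, through which the DREAM and B-MYB-MuvB complexes control them, often beside CCAAT boxes bound by NF-Y. Promoter sequences were taken from RefSeq (GRCm38.p6, 250 bases before each annotated start), in which 36 of the 45 genes had 38 windows. TTTGAA was present on either strand in 14 of the 38 windows (36.8%), against 16% of 32851 windows of all genes and 10.1% of 10287 windows of the genes tested here. In 9 of the 14 it began within 50 bases of the start. CCAAT on either strand was present in 28 windows (73.7%), against 33.8% of all windows, and in 12 of the 14 with TTTGAA. A match describes these letters only. The 30 bases around the match nearest the start are shown for the 13 genes that held one, ordered by distance from the start, to let the elements be compared. Capitals mark the match nearest the start, as TTTGAA, or as TTCAAA where it lies on the other strand, and the other match in the Cdca5 stretch is left in lower case; each sequence runs 5′ to 3′ on the strand of its gene.
Cdca5 (chr19:6085067-6085096, plus strand): gcaaggcgggcaatttgaacgTTTGAAgca
Cdk1 (chr10:69352913-69352942, minus strand): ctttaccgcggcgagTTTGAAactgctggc
Cdc20 (chr4:118437344-118437373, minus strand): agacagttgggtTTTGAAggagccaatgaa
Kif11 (chr19:37376351-37376380, plus strand): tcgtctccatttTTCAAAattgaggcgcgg
Top2a (chr11:99024195-99024224, minus strand): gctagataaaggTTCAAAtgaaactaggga
Espl1 (chr15:102296254-102296283, plus strand): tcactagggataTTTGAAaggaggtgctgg
Ube2c (chr2:164769888-164769917, plus strand): ggagggttgcaaTTCAAAcgcgggcggcgg
Ncapg (chr5:45669883-45669912, plus strand): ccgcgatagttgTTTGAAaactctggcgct
Prc1 (chr7:80294434-80294463, plus strand): cctctggctcggTTTGAAttccgcggggtc
Kif2c (chr4:117178858-117178887, minus strand): ccaggctgctctTTCAAAcctgagtaatgc
Cdkn3 (chr14:46760418-46760447, plus strand): ttccgcgcgtctTTCAAAgacttcctctga
Ect2 (chr3:27153975-27154004, minus strand): ccgtttaccggaTTTGAAacacactcacaa
Ccnb2 (chr9:70421704-70421733, minus strand): cagggactagaaTTTGAAaataagactgta
All 13 genes fell, as did every other tested gene of the list, so the direction of change does not bear on the match. Their log2 fold changes ran from -0.93 (Kif11, a spindle motor) to -3.03 (Cdca5). Cdk1, the kinase that drives mitotic entry, was at -1.39, Cdc20, the activator of the anaphase-promoting complex, at -2.25 and Ccnb2 (cyclin B2) at -2.07.

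Genes of DNA replication and the G1/S transition fell less uniformly. Of 44 tested, 34 fell, 1 passed the test as higher and 9 did not pass (77.3% and 2.27% fell and rose, against 17.3% and 16.5% of all tested genes), with a median of -1.10. Cdt1, which loads the replicative helicase onto origins, read 60.5, 69.9 and 67.7 RPM in Control and 11.9, 15.1 and 11.7 RPM in 2MUT (log2 fold change -2.28 ± 0.14, limma adjusted p = 1.4e-06). Uhrf1, which guides maintenance DNA methylation behind the fork, read 47.2, 60.5 and 50.7 RPM in Control and 12.7, 13.3 and 8.67 RPM in 2MUT (log2 fold change -2.11 ± 0.18, limma adjusted p = 1e-05). E2f7, an E2F family repressor induced in S phase, read 18.8, 15.7 and 20.5 RPM in Control and 3.86, 3.51 and 3.58 RPM in 2MUT (log2 fold change -2.05 ± 0.18, limma adjusted p = 1.4e-05). The groups were well separated in all of these genes.

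Tk1 (thymidine kinase) was at -2.02 ± 0.25, and the helicase subunits Mcm5 and Mcm2 were at -1.77 ± 0.21 and -1.11 ± 0.13. The helicase subunit Mcm7 read 149, 185 and 168 RPM in Control and 89.2, 87.8 and 16.6 RPM in 2MUT, with replicate 3 far below its partners. Its log2 fold change of -1.68 ± 0.48 was -0.90 without 2MUT replicate 3, and its call was lost without Control replicate 2, without a variance trend, in the unmoderated test and in DESeq2 (adjusted p = 0.055 to 0.21, against 0.00085 to 0.049 in the other alternatives). The single gene called higher, the GINS subunit Gins4 (0.46 ± 0.17), lost its call without Control replicate 1, 2MUT replicate 2 or 2MUT replicate 3. Outside the list, Neil3, a DNA glycosylase of replicating cells, read 33.6, 47.1 and 30.1 RPM in Control and 4.94, 4.98 and 3.30 RPM in 2MUT (log2 fold change -2.80 ± 0.21, limma adjusted p = 4.5e-06), and 2810417H13Rik, which encodes the PCNA-associated factor, was at -2.56 ± 0.15.

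E2F factors are known to drive genes of this kind, and 2 common forms of their site were searched on both strands. TTTCCCGC was found in 4 of 38 windows (10.5%) of 33 of the genes, against 0.895% of all windows and 1.65% of those of the genes tested, and TTTGGCGC in 2 (5.26%) against 0.417% and 0.797%. The window of E2f7, the largest fall of the list with a match, is shown in full because no annotated exon lies in it. Capitals mark the TTTCCCGC site, which lies on the opposite strand and so reads GCGGGAAA.
E2f7 (chr10:110745189-110745438, plus strand): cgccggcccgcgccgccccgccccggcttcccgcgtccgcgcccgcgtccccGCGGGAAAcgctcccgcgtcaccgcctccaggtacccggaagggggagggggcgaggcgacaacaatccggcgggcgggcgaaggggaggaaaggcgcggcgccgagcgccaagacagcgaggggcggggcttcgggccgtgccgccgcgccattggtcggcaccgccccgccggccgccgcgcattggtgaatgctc
Its level in 2MUT, as given above, was between 3.51 and 3.86 RPM.

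**Figure D3:**
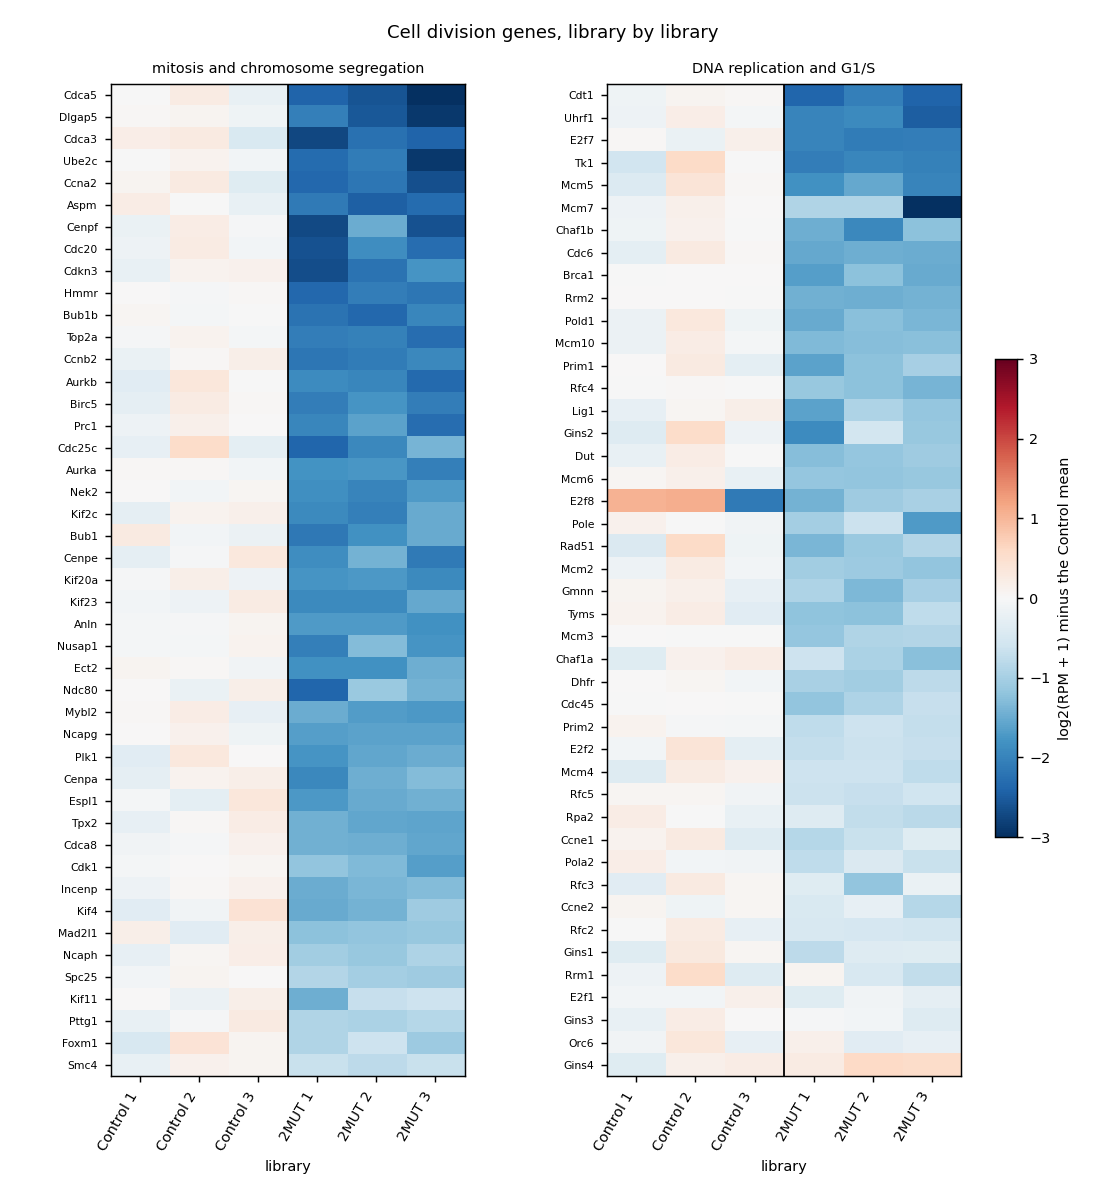
Heat maps of log2(RPM + 1) minus the Control mean, in each of the 6 libraries (columns), for the tested genes of the mitosis list (left, 45 rows) and of the DNA replication and G1/S list (right, 44 rows), ordered by log2 fold change and with colours limited to the range from -3 to 3. The 2MUT columns are blue for every mitosis gene, while the lowest rows of the replication list, such as Orc6 and Gins4, are near white or red.

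A list of cell cycle brakes, p53 targets, D cyclins and their kinases changed in both directions. Of 32 tested members, 7 rose and 10 fell (21.9% and 31.2%, against 16.5% and 17.3% of all tested genes), and 15 did not pass. These are not counts of brakes alone, because Ccnd2 is among the rises and Ccnd1 among the falls. Sesn2, a p53 and stress target that restrains mTORC1, rose from 17.9 ± 5.65 to 41.1 ± 5.11 RPM (1.20 ± 0.22). Ccnd2 (cyclin D2) rose from 369.7 ± 35.1 to 508 ± 21.9 RPM, while Ccnd1 (cyclin D1) read 28.7, 37.9 and 33.9 RPM in Control and 10.97, 11.3 and 9.91 RPM in 2MUT (log2 fold change -1.55 ± 0.16, limma adjusted p = 3.8e-05). The D cyclins therefore moved in opposite directions, each without overlap of the libraries. Cdkn1c (p57) fell (-1.66 ± 0.27), as did the stress genes Gadd45a and Gadd45b (-0.76 ± 0.09 and -0.97 ± 0.10). Cdkn2a, whose locus is often lost or silenced in immortal MEFs, was present at 796, 862 and 978 RPM in Control and 909.5, 913 and 973 RPM in 2MUT and did not pass the test (0.09 ± 0.09). The count of rises was 4 without Control replicate 1 or 2MUT replicate 3, and 2 without 2MUT replicate 1 or 2.

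Matrix genes changed in both directions, also within each class. Of 21 tested collagen chains, 6 rose and 9 fell (28.6% and 42.9%, against 16.5% and 17.3% of all tested genes; median -0.26). The fibrillar chain gene Col11a1 read 209.8, 192 and 194 RPM in Control and 32.6, 28.3 and 32.3 RPM in 2MUT (log2 fold change -2.64 ± 0.11, limma adjusted p = 8.2e-08). Col3a1 (type III collagen) went from 144 ± 12.3 to 27.9 ± 3.71 RPM (-2.33 ± 0.13). Col1a2 was at -0.82 ± 0.09, and the type VI chain Col6a3 at -0.82 ± 0.13. In contrast, the basement membrane chain Col4a1 rose from 232 ± 6.74 to 369 ± 22.4 RPM (0.67 ± 0.09), although another such chain, Col4a5, fell (-0.81 ± 0.11). Col8a1, Col12a1 and Col27a1 rose as well, at 0.54, 0.63 and 1.66. Col20a1, a chain gene that is not in this list, rose further, at 2.98.

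Of 27 enzymes and chaperones that process collagen 13 rose, 4 fell and 10 did not pass (48.1% and 14.8% rose and fell, against 16.5% and 17.3% of all tested genes; median 0.29). Crtap, part of the prolyl 3-hydroxylation complex, read 229, 212 and 233 RPM in Control and 584, 503 and 616 RPM in 2MUT (log2 fold change 1.33 ± 0.10, limma adjusted p = 4.4e-06). Plod2, a lysyl hydroxylase, was at 0.97 ± 0.15, P4ha2, a catalytic subunit of prolyl 4-hydroxylase, at 0.88 ± 0.10, and its partner P4hb at 0.49 ± 0.08. Both hydroxylases depend on 2-oxoglutarate. Leprel1, the prolyl 3-hydroxylase 2 gene, went the other way (505, 536 and 272 RPM in Control and 132, 138 and 138 RPM in 2MUT), with Control replicate 3 below its partners but above every 2MUT library.

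Of 30 proteoglycans and matricellular proteins 9 rose and 11 fell (30% and 36.7%, against 16.5% and 17.3% of all tested genes). Falls included Spp1 (osteopontin), which read 106, 122 and 106 RPM in Control and 33.1, 32.1 and 31.8 RPM in 2MUT (log2 fold change -1.75 ± 0.11, limma adjusted p = 1.5e-06), Postn (periostin, -1.50 ± 0.15), the small leucine-rich proteoglycans Ogn and Dcn (-1.08 ± 0.11 and -0.86 ± 0.10) and Has2, given above. Rises included Fbln5, an elastic fibre protein, from 73.8 ± 4.48 to 168 ± 11.5 RPM (1.18 ± 0.10), Thbs1 (thrombospondin 1, 0.75 ± 0.09) and the collagen-binding Sparc from the processing list (0.81 ± 0.10). Among 23 metalloproteinases and inhibitors 7 rose and 6 fell (30.4% and 26.1%). Timp3 rose from 764 ± 104 to 1411 ± 49.8 RPM, whereas the proteases Adamts1, Adamts4 and Mmp14 fell, at -1.23, -1.09 and -0.57, and Timp4 went from 4.44 ± 1.25 to 0.0517 ± 0.0895 RPM. That count of rises was 4 without Control replicate 1 or without any 1 of the 2MUT replicates.

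Of 21 integrins, syndecans and glypicans, which are receptors for matrix, 11 rose and 2 fell (52.4% and 9.52%, against 16.5% and 17.3% of all tested genes), with a median of 0.53, which was 0.39 over members of at least 10 RPM and 0.10 without the filter on low values, when more members enter the median. Itga1, a collagen receptor subunit, went from 11.4 ± 0.909 to 20.8 ± 0.917 RPM and the glypicans Gpc4 and Gpc6 were at 0.96 ± 0.17 and 0.94 ± 0.15. Itgb2, the leukocyte integrin beta chain, rose from 2.37 ± 0.663 to 8.02 ± 0.606 RPM (log2 fold change 1.43 ± 0.22, limma adjusted p = 0.0005), while Cd44, the hyaluronan receptor, fell from 317 ± 15.4 to 182 ± 5.25 RPM (-0.79 ± 0.09).

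Contractile and myofibroblast genes fell in 11 of 21 and rose in 3 (52.4% and 14.3%, against 17.3% and 16.5% of all tested genes; median -0.51, or -0.27 without the filter on low values). Acta2 (smooth muscle actin, the defining myofibroblast gene) read 147, 139 and 144 RPM in Control and 37.9, 34.3 and 38.2 RPM in 2MUT (log2 fold change -1.94 ± 0.11, limma adjusted p = 5.4e-07). Cnn1 (calponin) went from 45.8 ± 5.28 to 10.5 ± 3.91 RPM (log2 fold change -2.07 ± 0.21, limma adjusted p = 4.5e-05). In both genes the groups of libraries were separate. Myl9, a myosin light chain, and Vcl (vinculin, which ties actin to adhesions) were at -1.45 ± 0.15 and -1.18 ± 0.10. The rises were Mkl1, a coactivator that actin dynamics send to the nucleus (0.75 ± 0.11), Mylk, a myosin light chain kinase (0.84 ± 0.19), and Synpo2, an actin-bundling protein (1.34 ± 0.25).

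Of 31 cadherins and other adhesion molecules 9 rose and 8 fell (29% and 25.8%, against 16.5% and 17.3% of all tested genes). Cdh2 (N-cadherin) read 18.5, 17.5 and 18.1 RPM in Control and 56.2, 50.95 and 52.1 RPM in 2MUT (log2 fold change 1.51 ± 0.13, limma adjusted p = 9.1e-06), and Cdh11, the fibroblast cadherin, was at 1.13 ± 0.16. Cldn1 (claudin 1), Vcam1 and Pcdh18 fell, at -2.31, -1.35 and -1.48.

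**Figure D4:**
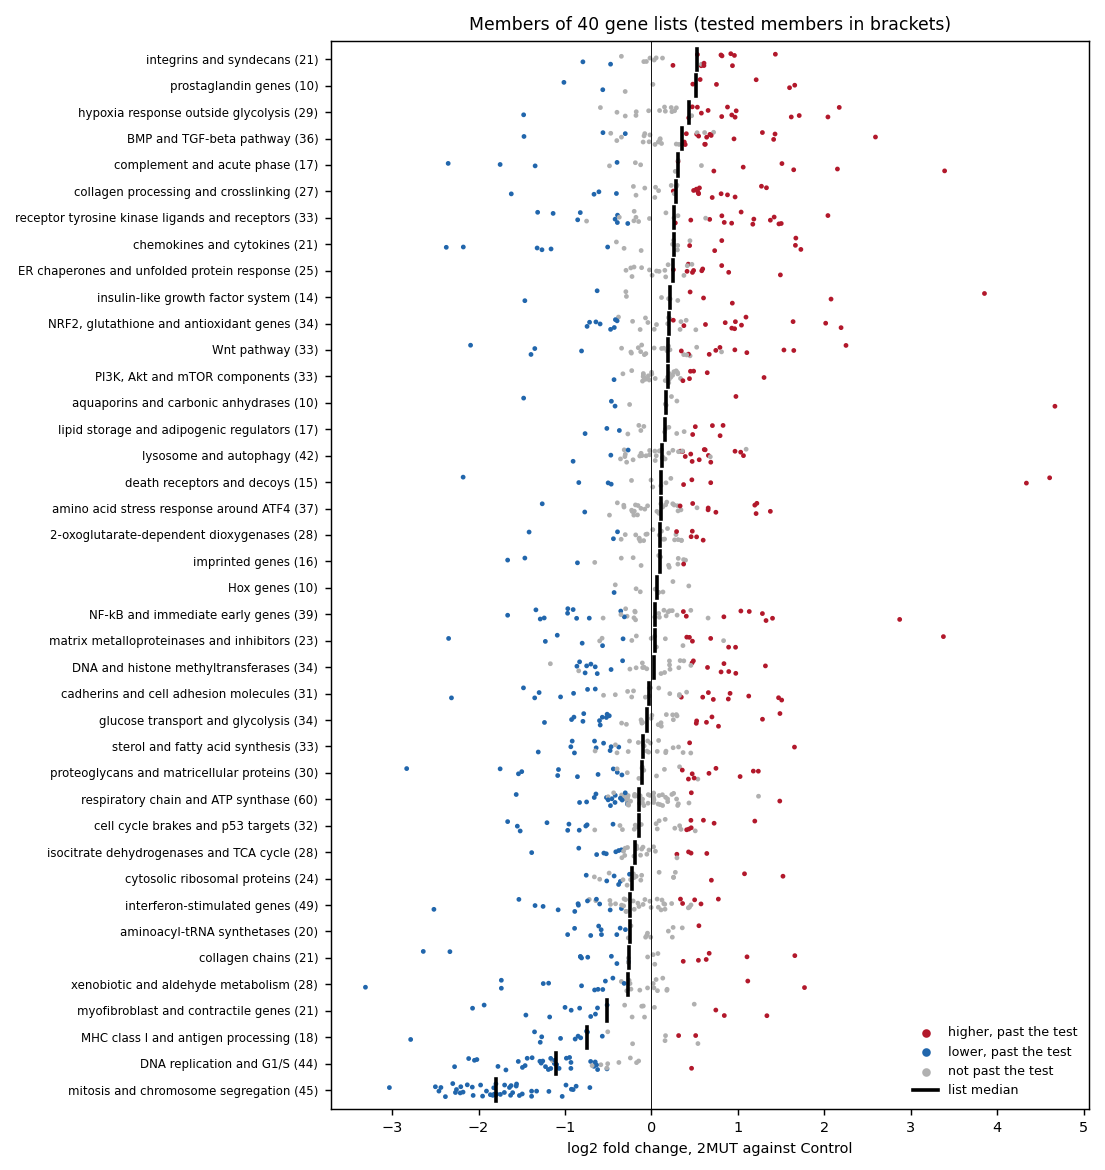
Log2 fold change of 2MUT against Control (x axis) for each tested member (points) of 40 gene lists (rows, number tested in brackets), with the list median as a black bar; red and blue points passed the limma test as higher and lower. The lists are ordered by median, from mitosis at -1.80 and DNA replication at -1.10 at the bottom to integrins and syndecans at 0.53 at the top.

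In the BMP and TGF-beta pathway, in which secreted ligands act through receptor kinases and SMADs, 15 of 36 genes rose and 3 fell (41.7% and 8.33%, against 16.5% and 17.3% of all tested genes; median 0.35, or 0.20 over members of at least 10 RPM). Among ligands, Bmp4 fell (-1.47 ± 0.11) while Tgfb2 rose, reading 36.5, 63.4 and 26.4 RPM in Control and 82.97, 86.5 and 169 RPM in 2MUT (log2 fold change 1.41 ± 0.31, limma adjusted p = 0.0048), with 2MUT replicate 3 the highest. Among receptors, the co-receptor Tgfbr3 rose from 588 ± 26.4 to 902 ± 37.2 RPM. Among inhibitors, the secreted Grem1 rose as above and the intracellular Smad6 was at 1.43 ± 0.20. The BMP target genes split, with Id2 at 1.28 ± 0.21 and Id3 at -0.56 ± 0.12.

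In the Wnt pathway 10 of 33 rose and 4 fell (30.3% and 12.1%, against 16.5% and 17.3% of all tested genes; median 0.20). Axin2, a feedback inhibitor widely used as a target gene of the pathway, read 6.66, 5.41 and 5.61 RPM in Control and 35.1, 33.8 and 26.8 RPM in 2MUT (log2 fold change 2.25 ± 0.17, limma adjusted p = 4.9e-06). Lef1 and Tcf7l2, transcription factors that carry β-catenin to DNA, rose (1.10 ± 0.18 and 0.97 ± 0.19) while their relative Tcf7 fell (-1.35 ± 0.22). Sfrp1, a secreted Wnt antagonist, and the receptor Ror1 rose (1.53 ± 0.16 and 1.65 ± 0.19). Rspo2, a secreted enhancer of Wnt signals, and Sfrp4 fell (-2.09 ± 0.27 and -1.39 ± 0.20).

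Of 33 receptor tyrosine kinases and ligands 14 rose and 8 fell (42.4% and 24.2%, against 16.5% and 17.3% of all tested genes), with 4 falls without 2MUT replicate 1 and 5 without 2MUT replicate 3. Fgfr1, the main fibroblast growth factor receptor of these cells, read 292, 307 and 304 RPM in Control and 778, 829.8 and 812 RPM in 2MUT (log2 fold change 1.42 ± 0.08, limma adjusted p = 8.2e-07). Hbegf and Ereg, ligands of the EGF receptor, rose (1.48 ± 0.16 and 1.50 ± 0.16). Erbb3 and its ligand gene Nrg1 fell (-1.32 ± 0.12 and -0.85 ± 0.10). In the insulin-like growth factor system 5 of 14 rose and 2 fell (35.7% and 14.3%). Igf1 read 0.444, 1.42 and 1.23 RPM in Control and 7.26, 9.08 and 6.05 RPM in 2MUT (log2 fold change 2.08 ± 0.26, limma adjusted p = 0.00016), Igf1r was at 0.60 ± 0.10, and Igf2 fell from 24.9 ± 2.51 to 8.39 ± 0.912 RPM (-1.46 ± 0.16).

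Of 33 components of PI3K, Akt and mTOR signalling 6 rose (18.2%, against 16.5% of all tested genes) and 1 fell, with 1 rise without 2MUT replicate 3 and 2 falls without Control replicate 1. Deptor, an inhibitor of mTOR, went from 23.5 ± 6.72 to 58.00 ± 2.44 RPM (log2 fold change 1.30 ± 0.18, limma adjusted p = 0.00025). Akt1 was level, at 553, 532 and 550.2 RPM in Control and 570.1, 527 and 542 RPM in 2MUT (0.00 ± 0.08).

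Genes of MHC class I presentation, which shows peptides of the cell to T cells, mostly fell. Of 18 tested, 11 fell and 2 rose (61.1% and 11.1%, against 17.3% and 16.5% of all tested genes; median -0.75), with 1 rise without 2MUT replicate 2 or 3. The class I heavy chain gene H2-K1 read 1236, 1187 and 1124 RPM in Control and 473, 479 and 500.3 RPM in 2MUT (log2 fold change -1.29 ± 0.08, limma adjusted p = 1.4e-06), and H2-D1 was at -0.75 ± 0.08; these near-identical genes may share reads. The peptide transporter Tap1 and the immunoproteasome subunit Psmb9 were at -1.35 ± 0.17 and -1.27 ± 0.23. Of the 2 rises, the class I light chain gene B2m was at 0.31 ± 0.08, a call lost without 2MUT replicate 2 and without a variance trend. Among interferon-stimulated genes 13 of 49 fell and 5 rose (26.5% and 10.2%), but 0 of the rises remained without 2MUT replicate 1 or 2, 1 without Control replicate 1, and 2 without Control replicate 2 or 2MUT replicate 3. Oasl2 read 114, 79.9 and 99.8 RPM in Control and 38.3, 41.6 and 40.3 RPM in 2MUT (log2 fold change -1.25 ± 0.14, limma adjusted p = 6.6e-05), and Ifi27l2a, Zbp1 and Bst2 were at -2.52, -1.35 and -0.74.

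Of 21 chemokines and cytokines 6 rose and 6 fell (28.6% each, against 16.5% and 17.3% of all tested genes), with 2 rises without 2MUT replicate 1 and 3 without 2MUT replicate 3. The neutrophil attractants Cxcl1 and Cxcl5 rose: Cxcl1 read 2644, 2581 and 2358 RPM in Control and 9227, 7440.0 and 7576 RPM in 2MUT (log2 fold change 1.67 ± 0.10, limma adjusted p = 1.1e-06), and Cxcl5 was at 1.73 ± 0.12. Ccl5, which attracts T cells, read 194, 194 and 208 RPM in Control and 35.4, 40.5 and 36.7 RPM in 2MUT (log2 fold change -2.37 ± 0.11, limma adjusted p = 1.5e-07), and Cx3cl1 fell as well (-1.27 ± 0.11). No library of either group crossed into the other in these genes.

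Acute phase and complement genes rose in 7 of 17 and fell in 4 (41.2% and 23.5%, against 16.5% and 17.3% of all tested genes; median 0.31, or 0.19 without Control replicate 1). The serum amyloid gene Saa3 read 148, 205 and 150.4 RPM in Control and 772, 868 and 603 RPM in 2MUT (log2 fold change 2.15 ± 0.15, limma adjusted p = 3.2e-06). Ptx3, a soluble pattern receptor, and Lcn2, an iron-withholding lipocalin, were at 1.51 ± 0.17 and 0.72 ± 0.10. Lbp, which hands lipopolysaccharide to CD14, fell (-1.75 ± 0.20). Of 39 NF-κB and immediate early genes 9 rose and 11 fell (23.1% and 28.2%). Nfkbiz, an atypical IκB, and the stress factor Atf3 rose (1.03 ± 0.09 and 1.40 ± 0.18), while Nfkb2, Egr1 and Junb fell (-0.97 ± 0.09, -1.29 ± 0.16 and -1.24 ± 0.09).

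Prostaglandin genes had a median of 0.52 (0.18 without the filter on low values), with 6 rises and 2 falls among 10 (60% and 20%, against 16.5% and 17.3% of all tested genes), and 1 fall without 2MUT replicate 1 or 3. Ptgs2, the inducible cyclooxygenase, and its constitutive relative Ptgs1 were at 1.60 ± 0.14 and 0.56 ± 0.13. Slco2a1, the prostaglandin uptake transporter, read 64.8, 60.1 and 71.1 RPM in Control and 198, 208 and 218 RPM in 2MUT (log2 fold change 1.66 ± 0.10, limma adjusted p = 1.4e-06). Abcc4, which exports prostaglandin, was at 1.21 ± 0.18. Among 15 death receptors and decoys 5 rose and 4 fell (33.3% and 26.7%). The death ligand gene Tnfsf10 (TRAIL) fell from 7.76 ± 2.99 to 0.883 ± 0.329 RPM (-2.18 ± 0.28) and Tnfrsf1a, the main TNF receptor, was at -0.47 ± 0.08.

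Hypoxia response genes outside glycolysis rose in 14 of 29 and fell in 1 (48.3% and 3.45%, against 16.5% and 17.3% of all tested genes; median 0.43), with 2 falls without Control replicate 1 or 3. Hif1a, the oxygen-regulated subunit of the hypoxia factor, read 83.01, 84.3 and 76.6 RPM in Control and 266, 232 and 256 RPM in 2MUT (log2 fold change 1.62 ± 0.10, limma adjusted p = 1.3e-06). Nos2, the inducible nitric oxide synthase, read 53.7, 61.5 and 57.1 RPM in Control and 236, 280.2 and 272 RPM in 2MUT (log2 fold change 2.17 ± 0.11, limma adjusted p = 2.9e-07). Angptl4, a secreted inhibitor of lipoprotein lipase, read 30.3, 41.2 and 35.00 RPM in Control and 151, 158 and 136 RPM in 2MUT (log2 fold change 2.04 ± 0.13, limma adjusted p = 1.4e-06). The libraries of these 3 genes kept tightly to their groups. Stc2, a secreted glycoprotein, and Hmox1 (haem oxygenase) were at 1.71 ± 0.29 and 0.93 ± 0.15. The single fall was Car9, a carbonic anhydrase widely used as a hypoxia marker, which read 316, 276 and 298 RPM in Control and 111, 102 and 105 RPM in 2MUT (log2 fold change -1.48 ± 0.10, limma adjusted p = 1.6e-06).

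Of 34 genes of glucose transport and glycolysis 7 rose and 11 fell (20.6% and 32.4%, against 16.5% and 17.3% of all tested genes). The glucose transporter gene Slc2a1 was at 1.49 ± 0.11, Pgd, an enzyme of the pentose phosphate pathway, read 60.5, 82.8 and 71.2 RPM in Control and 153, 177 and 195 RPM in 2MUT (log2 fold change 1.28 ± 0.14, limma adjusted p = 5e-05), and Hk1 (hexokinase) and the lactate exporter Slc16a1 were at 0.70 ± 0.16 and 0.78 ± 0.12. Among enzymes further along, Gpi1 (-0.79 ± 0.08), Aldoa (-0.49 ± 0.09) and the muscle enolase Eno3 (-1.24 ± 0.19) fell, while the pyruvate kinase gene Pkm, at 0.17 ± 0.08, did not pass the test. Pdha1, through which pyruvate enters mitochondria as acetyl-CoA, read 2209, 1702 and 1714 RPM in Control and 1029, 962 and 1008 RPM in 2MUT (log2 fold change -0.90 ± 0.11, limma adjusted p = 0.00011). Ldha (lactate dehydrogenase), at 6408, 5491 and 5404 RPM in Control and 5299, 5237 and 5433 RPM in 2MUT, did not pass the test.

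Of 28 genes of the TCA cycle and its neighbours 8 fell and 4 rose (28.6% and 14.3%, against 17.3% and 16.5% of all tested genes), with 1 rise without Control replicate 1, 2MUT replicate 2 or 2MUT replicate 3 and 2 without 2MUT replicate 1. Fh1 (fumarase) read 100.3, 124 and 121 RPM in Control and 64.9, 63.7 and 62.1 RPM in 2MUT (log2 fold change -0.84 ± 0.11, limma adjusted p = 0.00026). Got1, the cytosolic aspartate aminotransferase, was at -0.52 ± 0.13, and Adhfe1, a mitochondrial enzyme that forms 2-HG, went from 2.34 ± 0.968 to 0.241 ± 0.0750 RPM (-1.39 ± 0.29). Of 60 respiratory chain and ATP synthase genes 15 fell and 2 rose (25% and 3.33%). The complex I gene Ndufv3 was at -0.75 ± 0.09. The 2 rises became 6 without Control replicate 2, 4 without Control replicate 3 and 1 without Control replicate 1 or 2MUT replicate 3.

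Of 28 oxygenases that use 2-oxoglutarate 5 rose and 3 fell (17.9% and 10.7%, against 16.5% and 17.3% of all tested genes), and 3 and 1 did so without Control replicate 2, 2MUT replicate 1 or 2MUT replicate 3. The collagen hydroxylases, such as Plod2, P4ha2 and Leprel1, are not in this list and are given with collagen processing. The H3K4 demethylases Kdm5a and Kdm5b rose (0.52 ± 0.10 and 0.60 ± 0.11), as did Tet3 (0.46 ± 0.10). Jmjd8, a JmjC-domain protein of the endoplasmic reticulum, read 48.4, 63.5 and 45.3 RPM in Control and 15.8, 19.8 and 21.3 RPM in 2MUT (log2 fold change -1.42 ± 0.17, limma adjusted p = 0.00011). Of 34 DNA and histone methyltransferases 8 rose and 9 fell (23.5% and 26.5%). Dnmt1, the maintenance DNA methyltransferase, and Ezh2, which writes H3K27 methylation, fell (-0.86 ± 0.15 and -0.77 ± 0.18). The H3K9 enzymes split, with Ehmt2 at -0.83 ± 0.10 and Setdb1 at 0.98 ± 0.12. The H3K4 enzymes Kmt2a, Kmt2c and Kmt2d rose, at 0.89, 0.84 and 0.47.

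Of 34 NRF2 and antioxidant genes 12 rose and 8 fell (35.3% and 23.5%, against 16.5% and 17.3% of all tested genes; median 0.21). Nfe2l2 (NRF2 itself) read 76.5, 85.2 and 127 RPM in Control and 179, 194 and 236 RPM in 2MUT (log2 fold change 1.09 ± 0.17, limma adjusted p = 0.00074), and its classical target Nqo1 read 8.88, 10.7 and 13.1 RPM in Control and 36.8, 36.5 and 33.9 RPM in 2MUT (log2 fold change 1.64 ± 0.16, limma adjusted p = 3.6e-05). Sod3, the secreted superoxide dismutase, read 49.4, 60.7 and 56.1 RPM in Control and 282, 263 and 226 RPM in 2MUT (log2 fold change 2.19 ± 0.12, limma adjusted p = 5.2e-07), and the mitochondrial Sod2 was at 1.04 ± 0.09. All 3 2MUT libraries lay above Control in each of these. Peroxiredoxins Prdx2 and Prdx5 and thioredoxin Txn1 fell (-0.64, -0.47 and -0.43).

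Of 25 chaperones and unfolded protein response genes of the endoplasmic reticulum 10 rose at a limma adjusted p under 0.05 (40%, against 16.5% of all tested genes), and 2 fell without Control replicate 2 or 3. Dnajb9, a co-chaperone induced by IRE1 signalling, read 15.5, 15.8 and 12.99 RPM in Control and 48.8, 41.6 and 39.8 RPM in 2MUT (log2 fold change 1.49 ± 0.15, limma adjusted p = 3.3e-05), and Pdia3, a disulfide isomerase, was at 0.89 ± 0.12. Hspa5 (BiP), the main chaperone, did not pass the test (0.19 ± 0.12). Ddit3 (CHOP), a death-promoting factor of the same stress, fell from 142 ± 42.8 to 56.7 ± 5.84 RPM (-1.26 ± 0.19). Of 37 genes of the amino acid response around ATF4 9 rose and 2 fell (24.3% and 5.41%, against 16.5% and 17.3% of all tested genes), the falls being 1 without Control replicate 2, 2MUT replicate 2 or 2MUT replicate 3. Atf4 itself, at 0.25 ± 0.09, did not pass (limma adjusted p = 0.052), and lay just past the threshold without Control replicate 3, with a filter of 10 RPM, with quantile normalization, with a replicate block and in DESeq2 (adjusted p = 0.025 to 0.047, and 0.052 to 0.15 in the other alternatives). The amino acid transporters Slc38a2 and Slc6a9 rose (1.21 ± 0.13 and 0.75 ± 0.10). Aminoacyl-tRNA synthetases fell in 9 of 20 and rose in 1 (45% and 5%; median -0.25; 2 rises without Control replicate 3 or 2MUT replicate 2), with Sars at -0.89 ± 0.12, Qars at -0.97 ± 0.10 and Wars, the single rise, at 0.55 ± 0.13.

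Lysosome and autophagy genes rose in 13 of 42 and fell in 3 (31% and 7.14%, against 16.5% and 17.3% of all tested genes), with 5 falls without Control replicate 3. Lamp1, a major lysosomal membrane protein, read 302, 261 and 235 RPM in Control and 548, 529.8 and 549 RPM in 2MUT (log2 fold change 1.03 ± 0.10, limma adjusted p = 3.3e-05), and the proteases Ctsd and Ctsl were at 0.47 ± 0.09 and 0.66 ± 0.11. Sterol and fatty acid synthesis fell in 10 of 33 and rose in 2 (30.3% and 6.06%), with 1 rise without Control replicate 1 or any 1 of the 2MUT replicates. Srebf2, the transcription factor of cholesterol synthesis, read 213, 198 and 202 RPM in Control and 81.7, 80.96 and 82.6 RPM in 2MUT (log2 fold change -1.31 ± 0.09, limma adjusted p = 3.3e-06), and Scd1 (stearoyl-CoA desaturase) and Cyp51 were at -0.92 ± 0.13 and -0.93 ± 0.14. Sqle (squalene epoxidase) rose, from 5.36 ± 1.28 to 19.1 ± 4.31 RPM (1.66 ± 0.22). Of 28 xenobiotic and aldehyde enzymes 12 fell and 2 rose (42.9% and 7.14%), among the falls Fmo1 at -1.74 ± 0.16 and the aldehyde dehydrogenases Aldh2 and Aldh6a1 at -0.81 ± 0.09 and -1.25 ± 0.14.

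Cytosolic ribosomal protein genes were mostly beyond the reach of this table, with 24 of 78 listed genes above the filter, of which 6 fell and 3 rose (25% and 12.5%, against 17.3% and 16.5% of all tested genes). Rps9, at 2867, 2547 and 2170.0 RPM in Control and 1506, 1451 and 1512 RPM in 2MUT, was the largest of the falls (-0.75 ± 0.10). The rises were all in genes under 6 RPM and became 1 without Control replicate 1, 2MUT replicate 2 or 2MUT replicate 3. Among 10 tested Hox genes, which mark position along the body axis, 1 passed the test, Hoxb4 at -0.43 ± 0.11. Of 16 imprinted genes 3 fell (18.8%), Cdkn1c, Igf2 and Dcn as given above, and 1 rose (6.25%), a call lost without 2MUT replicate 2.

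The stable change was then set against the change after 24 h of 2-HG, each taken within its own table, since the tables were made separately and the 2-HG libraries were deeper (14959318 to 18363768 reads). In the 2-HG comparison 16.1% of 10384 genes were higher and 16.7% lower. A limma test of the difference of the changes over 9612 genes called 1910 (19.9%) in which the 2MUT change was the higher and 1876 (19.5%) in which it was the lower. The lines, their selection and the length of exposure also differed between the experiments, and these cannot be told apart from the source of 2-HG.

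Cell division genes moved in opposite directions. In 2-HG(+) 41 of 48 tested mitosis genes rose (limma, median 0.775), against 16.1% of all genes tested there. The difference was past the test, with 2MUT the lower, in all 45 genes tested in both, against 19.5% of all 9612 genes. Top2a was at -2.13 in 2MUT and 0.84 in 2-HG(+), a difference of -2.97 ± 0.14 (limma adjusted p = 7.8e-09). Cdca5 was at -3.03 and 1.45 (difference -4.48 ± 0.47). In the replication list 43 of 45 rose in 2-HG(+), and 40 of 43 differed, all lower in 2MUT. Uhrf1 was at -2.11 and 1.12 (difference -3.23 ± 0.22).

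Amino acid stress genes also separated the experiments. In 2-HG(+) 29 of 37 genes around ATF4 and 19 of 20 aminoacyl-tRNA synthetases rose, with medians of 1.17 and 1.08, against 16.1% of all genes. In these lists 26 and 18 genes differed with 2MUT the lower, against 19.5% of all 9612 genes. Ddit3 was at -1.26 in 2MUT and 1.99 in 2-HG(+) (difference -3.25 ± 0.28, limma adjusted p = 1.2e-06). Sars was at -0.89 and 1.12 (difference -2.01 ± 0.16).

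Interferon, acute phase and growth factor lists differed the other way. In 2-HG(+) 46 of 47 interferon-stimulated genes fell (median -1.44), against 16.7% of all genes. Of the interferon-stimulated genes 39 of 44 differed with 2MUT the higher, against 19.9% of all 9612 genes. Of the acute phase and complement genes 12 of 14 differed with 2MUT the higher, Orm1 standing at 3.39 in 2MUT and -2.29 in 2-HG(+) and Saa3 at 2.15 and -2.32. Sod3 had one of the widest contrasts among the named genes, at 2.19 and -3.51 (difference 5.70 ± 0.16, limma adjusted p = 4.4e-11). In the BMP and TGF-beta list 17 of 35 genes, and in the Wnt list 15 of 29, differed with 2MUT the higher, against 1 the lower in each. Of all 9612 genes 19.9% differed with 2MUT the higher and 19.5% with 2MUT the lower. Sfrp1 was at 1.53 and -2.32.

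Some changes were of like size in both. Angptl4 was at 2.04 in 2MUT and 2.10 in 2-HG(+), a difference of -0.06 ± 0.21 (limma adjusted p = 0.84). Car9 was at -1.48 and -1.45 (difference -0.03 ± 0.17), Col1a2 at -0.82 and -0.81 (difference -0.01 ± 0.14) and Tap1 at -1.35 and -1.40 (difference 0.04 ± 0.21). A difference that misses the test does not show that the changes are equal. Slc2a1 rose in both, more in 2MUT (1.49 and 0.82, difference 0.67 ± 0.18, limma adjusted p = 0.011), whereas Hif1a was at 1.62 and 0.02 (difference 1.60 ± 0.17).

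**Figure D5:**
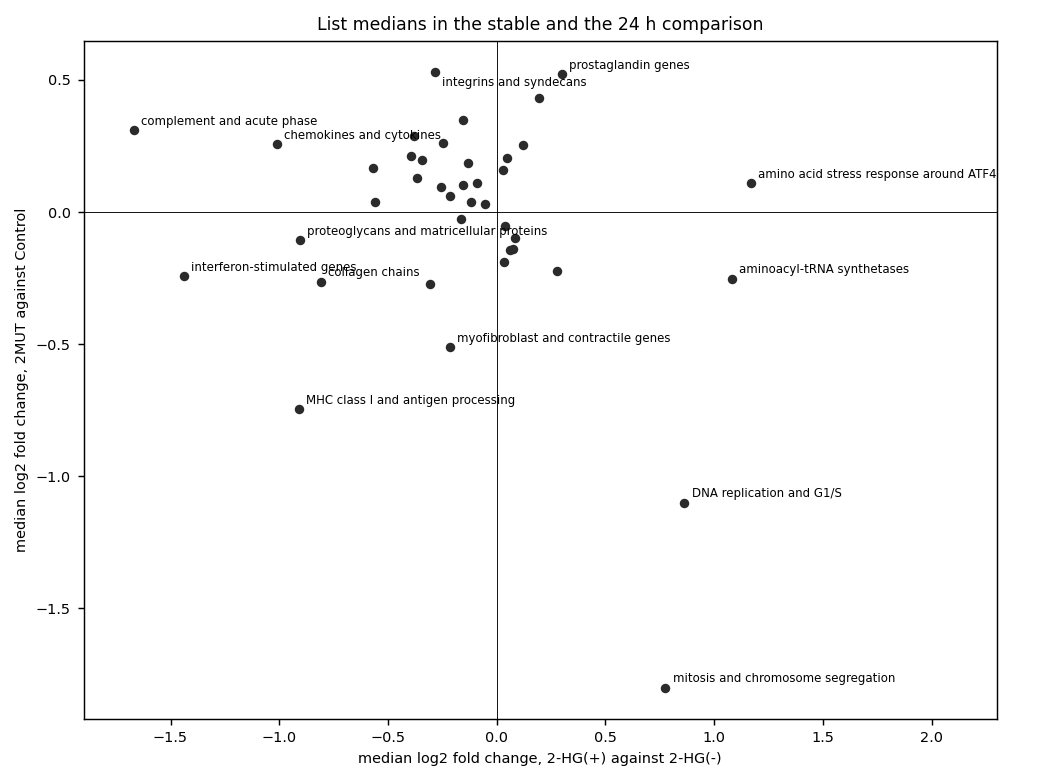
Median log2 fold change of each of the 40 gene lists in 2-HG(+) against 2-HG(-) after 24 h (x axis) and in 2MUT against Control (y axis), each over the members tested in that table; lists with a median beyond 0.45 in 2MUT or beyond 0.75 in 2-HG(+) are named. The mitosis and replication lists lie at the lower right (-1.80 and 0.775, -1.10 and 0.863), and the MHC class I list, at -0.75 and -0.911, is low in both.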

How the data were processed

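Total RNA of 6 MEF samples (3 Control, 3 2MUT) was measured with the Ion AmpliSeq Transcriptome Mouse panel, which amplify a short target of each transcript. The deposited RPM tables, 1 for each experiment, came from the authors' AmpliSeqRNA plug-in after alignment with TMAP. The genome build was not given in the sources used here. Each library's values were whole multiples of 1 read (100% whole within 0.02 reads), which gave the depths. PCR reads are not independent molecules, so floors of 3 reads cover counting error only.

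Genes averaging 1 RPM or more over the 6 libraries were fitted as log2(RPM + 1) with limma 3.58.1 (R 4.3.3; mean-variance trend, moderated, two-sided, Benjamini-Hochberg, threshold 0.05). The difference between the experiments was a contrast of group means over all 12 libraries. Steps were tested on simulated data. Alternatives were edgeR 4.0.16 and DESeq2 1.42.0 on recovered reads, other filters, scalings and added values, an unmoderated test, a block for the replicate number, and fits without each library.

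Named genes are the isocitrate dehydrogenases, Hif1a and Slc2a1, the 15 largest rises and falls past the threshold whose libraries did not overlap and whose higher group averaged 10 RPM or more, cell type markers, and, in each of 40 lists, up to 5 rises, 5 falls and the 3 members of highest level. The members of the lists and these rules were chosen with earlier results of these data known. In both experiments 27 entries bore a date in place of a gene name, and these were in no list. Where an annotated exon lay in a promoter window, only a site of 30 bases is shown. Some genes that the naming rule selects are not reported here.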

Additional observations from a re-analysis of the deposited data

How the results depend on the processing

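The counts of 1826 higher and 1915 lower genes stayed within 1.5 times under all alternatives but 1. A per-gene test without moderated variance, the kind of test the study used, called 1021 higher and 1223 lower genes, 2244 in all. List counts also shrank in that test. Rises went from 12 to 6 in the NRF2 list, 14 to 8 in the hypoxia list and 10 to 5 in the Wnt list. In the list with cell cycle brakes they went from 7 to 2, and falls of receptor tyrosine kinases and ligands from 8 to 3. Mitosis falls went from 45 to 42. edgeR on recovered reads gave 1817 and 1947 and DESeq2 1838 and 1910. With each library left out in turn, 1271 to 1926 were higher and 1484 to 1880 lower, the lowest without 2MUT replicate 2. No named gene past the test changed direction under these alternatives. Of 365 named genes past the test, 297 kept their call without any 1 library and 94 lost it in the unmoderated test. The cause of these losses was not tested. With the replicate number as a block, 1911 were higher and 1987 lower. Same-numbered libraries deviated together only weakly (correlations 0.0708, 0.0293 and 0.0319), and not every library correlated best with its own number, so the numbers were not taken as pairs. At 3 reads the floor was 0.410 to 0.464 RPM, and genes averaging under 1 RPM were not tested.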

Other observations

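Called genes were also counted by chromosome. Of the 11065 tested genes, 10572 were placed by name in GENCODE M21. Among 405 genes of the X chromosome 9.88% were higher and 23.2% lower in 2MUT (limma, Benjamini-Hochberg), with a median log2 fold change of -0.141, the lowest of all chromosomes. Among 288 genes of chromosome 18 the shares were 23.6% and 12.8%, with a median of 0.169, the highest. On the other chromosomes 13.3% to 21.6% were higher and 12.6% to 24% lower, the largest share of falls on chromosome 17, and medians lay between -0.0565 and 0.0726. These are counts over genes, which are not independent replicates, and no test was made.

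Single libraries departed from their partners in a set of well expressed genes, always downwards. Control replicate 3 had 35 such genes of 3973 with at least 50 RPM, 2MUT replicates 2 and 3 had 3 each, 2MUT replicate 1 had 2, Control replicate 2 had 1 and Control replicate 1 had 0. The 2MUT cases include Timp2, Mcm7 and Itga7, the laminin-binding integrin subunit gene, whose reads are uncertain because it overlaps Mettl7b, and in Control replicate 3 they include Tmsb4x, Dab2 and Lrig3. Lrig3, a membrane regulator of growth factor receptors, read 151, 138 and 12.7 RPM in Control and 311, 311 and 333 RPM in 2MUT. Tmsb4x, which encodes the actin-sequestering thymosin beta 4, read 772, 759.8 and 60.3 RPM in Control and 621, 640.2 and 665 RPM in 2MUT.

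Promoter letters of other lists are given as descriptions. The core of the interferon-stimulated response element was present on either strand in 14 of 47 windows (29.8%) of interferon-stimulated genes against 2.98% of 32851 windows of all genes and 2.6% of 10287 windows of the genes tested. CACGTG, an E-box form bound by TFEB, was present in 13 of 39 windows (33.3%) of lysosome and autophagy genes against 6.02% and 8.37%. The core of the ATF4 composite site was present in 7 of 38 windows (18.4%) of the list around ATF4 against 3.45% and 1.87%. ACGTG, the core of the hypoxia response element and part of the E-box form above, was present in 16 of 48 windows (33.3%) of glucose transport and glycolysis genes against 16.6% and 22%. In the NF-κB and immediate early list the AP-1 site TGACTCA was present in 2 of 35 windows (5.71%) against 4.46% and 3.21%, and the cyclic AMP response element TGACGTCA in 2 (5.71%) against 1.55% and 2.66%.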
